A study of Coregonus migratorius and Coregonus peled with 8 samples.

Results

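Larvae of the Baikal omul (Coregonus migratorius) and of the peled (Coregonus peled) were compared after repeated warming, and 71 of the 2184 listed genes stood higher than in the unheated control in both species. These 71 genes were chosen by that measured difference. The ratio (chronic + 1)/(control + 1) had to reach 1.5 in omul and in peled, and in each pair the higher of the values had to reach 10. Genes that stood at least 2-fold above the control after acute warming in both species, also on value + 1, were left out, which removed 8 genes. The 71 genes were 3.25% of the listed genes and 12.9% of the 550 that reached a value of 10 in both pairs.

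Both fishes are coldwater salmonids of the whitefish genus. In fishes, as in other animals, rapid heating switches on the heat shock response, in which heat shock factor drives genes of chaperones that bind unfolded proteins, and this response fades as cells recover. Warmth that lasts or returns is known to change other groups of genes as well, among them genes of metabolism, protein turnover, growth and immunity. The files give assembly identifiers of the form written by Trinity, a program that builds transcripts without a genome, and do not pair them with gene names. No function can therefore be given to any of the 71 genes, and identifiers are printed for examples only.

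Messenger RNA of whole larvae was measured in 8 groups of 1 library each, and each library pooled RNA from 12 to 16 larvae of a group. Larvae labelled nature were taken in each species from hatchery ponds by the Belaya River, and their age, temperature and time of rearing are not given. The other 3 groups of each species were kept in aquaculture for 1.5 months at 9 to 12 °C. Of these, the control was not heated, the acute group was warmed rapidly to 21 °C for 1 h, and the chronic group was held at 21 °C for 24 h, 3 times a week. The number of weeks is not given.

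No group has replicates, so a difference between 2 libraries has no replicate check and no test. Values are the authors' normalized expression signal without a stated unit, and sequencing depth is unknown. The summed signal ran from 79169 to 228369 per library. Levels are on the deposited scale, and differences are log2 ratios of value + 1, which understate the change of genes with low values. No source used here says whether values were scaled for gene length, so signals of different genes do not give their relative abundance. The deposited list is itself a selection by an unstated rule. In pooled whole larvae, more cells of a type and more RNA per cell cannot be told apart.

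The choice used the chronic and control libraries, and its values are given as a description. Of the 550 genes, 79 (14.4%) met the ratio of 1.5 in both species before the acute genes were left out. In omul the median level of the 71 genes was 32.3 without heat and 72.8 after chronic warming. In peled these medians were 16.2 and 52.7. The log2 ratio had a median of 0.90 in omul, with a range of 0.59 to 3.20, and of 1.75 in peled, with a range of 0.66 to 3.57. The ratio was larger in peled for 56 genes and larger in omul for 15, with a median difference of 0.56 (log2, peled minus omul). At least 2-fold ratios were reached by 28 genes in omul, where 10.9% of all listed genes at this level did so, and by 60 in peled, where 20.1% did. In 24 genes both species reached 2-fold, in 36 peled alone and in 4 omul alone.

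**Figure D1:**
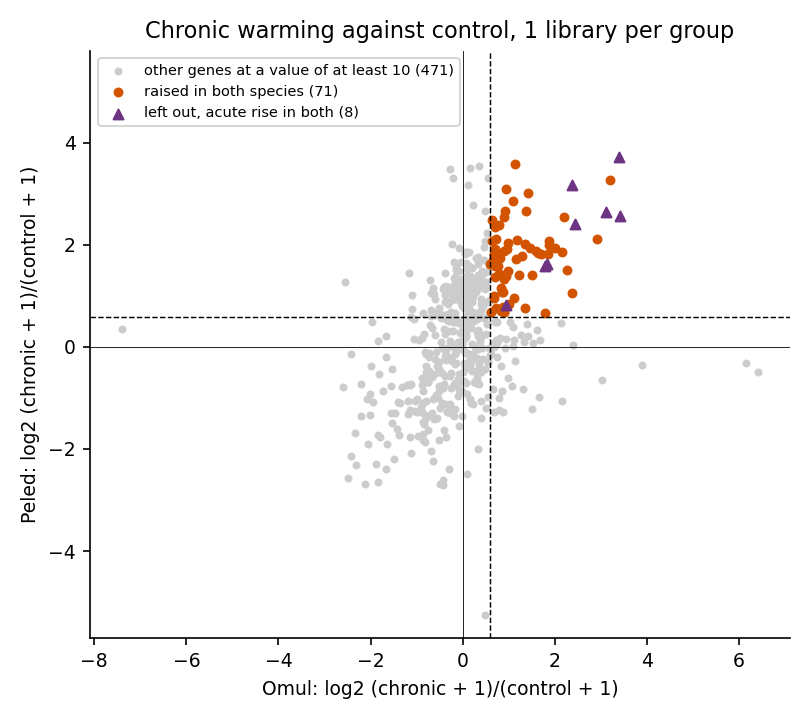
Log2 ratio of chronic to control in omul (x axis) and peled (y axis) for the 550 genes that reached a value of 10 in both pairs, with 1 library per group and dashed lines at the minimum ratio of 1.5. The 71 chosen genes lie to the upper right by choice, spread over 0.59 to 3.20 in omul and 0.66 to 3.57 in peled, and the 8 genes left out for their acute rise are drawn as triangles.

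TRINITY_DN9585_c0_g1 had the largest ratio shared by both species. Its values in omul were 12.6 in nature, 2.20 in the control, 2.84 after acute and 28.4 after chronic warming. In peled they were 6.07, 4.67, 6.17 and 53.4 in the same order. This gene was thus at its highest in the chronic library of each species, while acute warming left it within 1.5-fold of the control in both. TRINITY_DN77507_c0_g2 came next. Its omul values, in the same order, were 509, 129.9, 182 and 601, and its peled values 1118, 30.4, 39.2 and 183. Its level was highest after chronic warming in omul but in nature in peled. Below, sets of 4 values keep the order nature, control, acute, chronic.

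The genes with the largest differences of the ratio between the species are given here, 2 in each direction. The ratio was larger in peled for TRINITY_DN69366_c0_g1, where the control and chronic values were 17.9 and 40.3 in omul, against 1.58 and 29.7 in peled. For TRINITY_DN47028_c0_g1 they were 9.89 and 19.9 in omul, against 3.29 and 35.3 in peled. Both started lower in the peled control than in the omul control. The ratio was larger in omul for TRINITY_DN43394_c0_g1, with 21.9 and 118 in omul against 9.32 and 20.4 in peled. The same held for TRINITY_DN10539_c0_g1, with 17.5 and 62.4 against 9.14 and 15.0. The larger omul ratio of these genes went with acute values above the control in omul alone, at 134 and 35.6, against 7.69 and 8.18 in acute peled.

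At the edge of the choice the values of members and non-members were close. TRINITY_DN8159_c0_g1, just inside, had ratios of 1.51 in omul and 3.09 in peled, and TRINITY_DN53965_c0_g1 had 1.54 and 1.60. Just outside, TRINITY_DN2715_c0_g2 had 1.498 and 1.87, and TRINITY_DN53965_c1_g1 had 1.49 and 1.58. The last of these shares the number after DN, the assembler's first grouping of reads, with the member TRINITY_DN53965_c0_g1.

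The 71 genes came from 68 assembly components, groups of related sequences that the assembler could not separate fully. In 3 components both listed genes were members, which accounts for 6 of the 71. Members of a component may be copies or forms of the same gene and are not independent. In all, 14 members (19.7%) shared a component with some listed gene, against 205 (9.39%) of the listed genes. The mean value over the 8 libraries ran from 8.63 to 1178 with a median of 59.7, against a median of 10.9 for all listed genes, and the minimum of 10 in the choice itself favours high values. None of the 71 was listed at 0 in any of the 8 libraries.

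The highest mean signals, with no correction for length, belonged to TRINITY_DN61495_c0_g3 and TRINITY_DN1406_c0_g1. The former had omul values of 1739, 607, 869.6 and 970 and peled values of 3679, 304, 188 and 1064. The latter had omul values of 1578, 536, 625 and 1198 and peled values of 3325, 139, 107 and 463. Both were highest in nature in each species, and in peled both were lowest after acute warming. Summed over the 71 genes, the share of the listed signal in omul was 9.12% in nature, 5.62% without heat, 6.62% after acute and 10.9% after chronic warming. In peled it was 11.4%, 3.05%, 2.91% and 7.62%. Such sums have no correction for length and give most weight to the genes with the highest signals. They do not describe the 71 genes evenly.

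**Figure D2:**
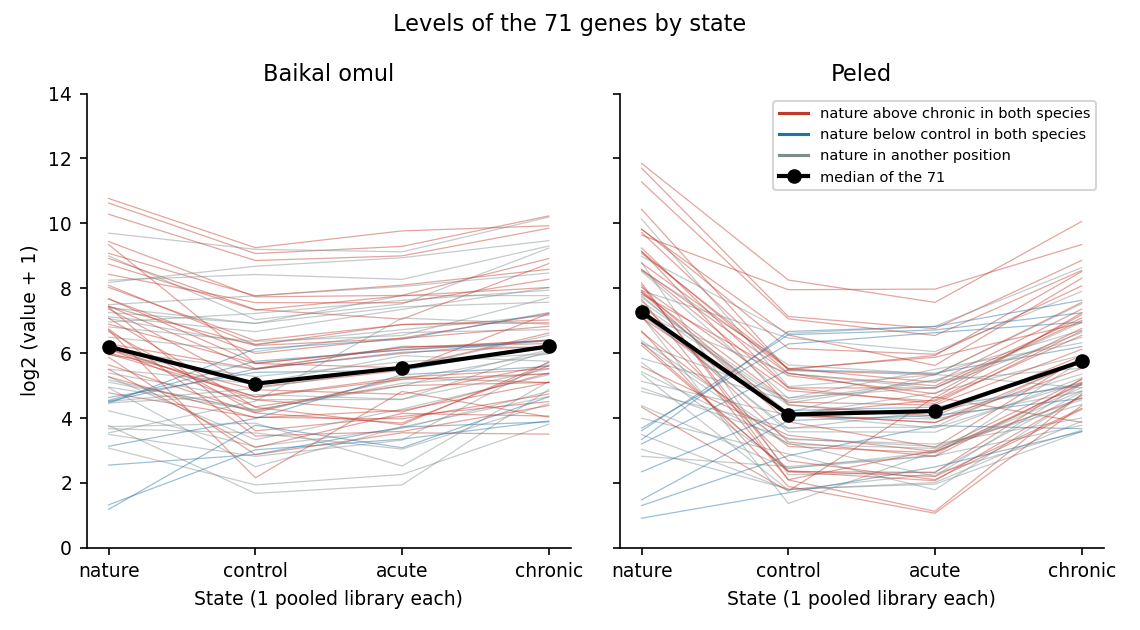
Level of each of the 71 genes as log2(value + 1) in the 4 states of omul (left) and peled (right), 1 pooled library per state, coloured by where nature lies relative to the control and chronic libraries; the black line joins the medians. The median falls from nature to the control and is high again after chronic warming in both species, and in peled it is highest in nature.

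After acute warming most of the 71 genes stood above the control in omul, but fewer than in omul did so in peled. The comparison shares its control libraries with the choice, which also left out genes with an acute rise in both species. Over the 71 genes the log2 ratio of acute to control had a median of 0.45 in omul and -0.094 in peled. For all listed genes it was -0.046 and -0.064, and for the 550 genes 0.0041 and -0.18. The acute value lay above the control for 57 of the 71 genes in omul (80.3%) and for 31 in peled (43.7%). Among all listed genes these shares were 45.4% and 45.7%, and among the 550 genes 50.4% and 40.5%, so the peled share is near both. It was higher in both species for 21 genes, higher in omul and lower in peled for 36, lower in omul and higher in peled for 10, and lower in both for 4. No joint shares over the listed genes or the 550 are given. Whether these joint counts depart from the shares of each species alone was not tested. A difference of at least 2-fold was uncommon. Of the 67 genes at a value of 10 in omul, 6 were at least 2-fold higher, where 8.15% of the listed genes were, and 1 was lower, where 10.5% were. Of 48 genes at this level in peled, 2 were higher and 0 lower, where 12.3% and 7.07% of the listed genes were. These shares are near or below those of the list.

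**Figure D3:**
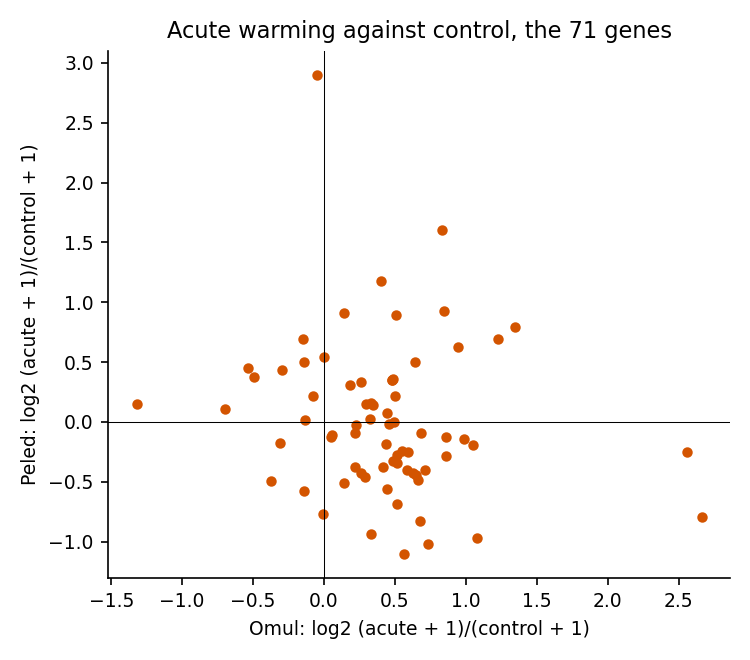
Log2 ratio of acute to control in omul (x axis) and peled (y axis) for each of the 71 genes, 1 library per group. The lower right field, higher in omul and lower in peled, holds 36 genes, and the upper right holds 21, without a share over the listed genes beside these counts.

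Among genes above the control in both acute libraries, TRINITY_DN69366_c0_g1 stood at 32.6 against 17.9 (acute against control) in omul, and in peled at 6.83 against 1.58. TRINITY_DN8188_c0_g2 stood at 39.4 against 14.9 in omul, and in peled at 4.63 against 2.24. On the lower side, TRINITY_DN40880_c1_g1 stood at 17.2 against 22.6 in omul, and in peled at 6.84 against 10.06. TRINITY_DN30809_c0_g2 stood at 186.6 against 187 in omul, and in peled at 23.6 against 40.9. The lower genes differed from the control by less than 2-fold in both species.

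Chronic values stood above acute values for 63 of the 71 genes in omul (88.7%) and for 68 in peled (95.8%). Among all listed genes these shares were 48.2% and 50.9%, and among the 550 genes 54.5% and 62.9%. The chronic library was the highest of the 3 aquaculture-reared libraries in both species for 60 of the 71 genes, a count given without a share over the listed genes. The chronic libraries were used in the choice, so these values are a description. Chronic over acute had a median log2 ratio of 0.67 in omul and 1.88 in peled. At least 2-fold higher after chronic warming were 21 genes in omul (7.36% of the listed genes at this level) and 56 in peled (19.7%), and 0 were at least 2-fold lower (6.84% and 19.0%). By the mean of the log2 ratios of both species, TRINITY_DN9585_c0_g1, described above, had the largest ratio of chronic to acute. TRINITY_DN232596_c0_g1 followed, with omul values of 10.3, 6.05, 8.97 and 52.3 and peled values of 10.2, 2.47, 3.04 and 13.96. In both species its chronic value exceeded every other library of that species.

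Larvae from nature had no part in the choice, and in them most of the 71 genes were high. On the deposited scale the median level in nature was 72.5 in omul, close to the chronic 72.8, and 153 in peled, above the chronic 52.7. The median of all listed genes was 10.9 in omul nature and 8.72 in omul chronic, so the closeness in omul depends on the scale. The control, which the comparison below uses, had been used in the choice. Nature over control had a median log2 ratio of 1.11 in omul and 3.22 in peled, against 0.25 and 0.39 for all listed genes. At least 2-fold higher in nature were 35 genes in omul (33.0% of the listed genes at this level were) and 61 in peled (48.2%). At least 2-fold lower were 3 in omul (21.8%) and 6 in peled (39.7%). Of the members at this level, 68 in omul and 67 in peled, these are shares of 51.5% and 91.0% for the higher side.

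Scaling of the libraries to a common median brought the median log2 ratio of all listed genes to 0.018 in omul (0.25 before) and to 0.29 in peled (0.39 before). The members' median was then 0.86 in omul and 3.07 in peled, with 31 genes higher (27.3% of the listed genes whose higher value reached 10) and 7 lower (28.6%) in omul, and 57 higher (46.1%) and 6 lower (43.2%) in peled. The members stayed above the list's median in both species under this scaling.

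The acute libraries were used only to leave genes out, and nature was set against them in a comparison added after the data had been seen. Nature over acute had a median log2 ratio of 0.81 in omul and 3.23 in peled, against 0.26 in each for all listed genes. At least 2-fold higher in nature were 27 genes in omul (32.8%) and 58 in peled (47.4%), and at least 2-fold lower were 7 in each species (19.6% and 41.2%). In peled the members' share on the higher side, 85.3%, stood above that of the list, and in omul it was 39.7%. After scaling to a common median the omul counts were 17 higher and 9 lower. The share of 25.8% on the higher side was then near the 26.2% of the list and above the 18.0% of the 550 genes. On the lower side the share was 13.6%, against 27.4% of the list and 31.7% of the 550 genes. The members' median in omul was then 0.51, against -0.026 for all listed genes and -0.40 for the 550.

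The position of nature relative to the control and chronic libraries separated the genes into groups. Both of these libraries were used in the choice, so the shares of the members are a description and not independent of it. In 33 genes nature lay above the chronic library in both species, where 163 of the 550 genes at this level (29.6%) lay above both libraries, against 46.5% of the 71. In 15 genes nature lay between control and chronic in omul and above chronic in peled. In 8 genes nature lay below the control in both species, where 188 of the 550 (34.2%) lay below both libraries, against 11.3% of the 71. The other 15 genes took mixed positions. Over all 71 genes, nature exceeded chronic for 34 genes in omul and for 54 in peled.

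**Figure D4:**
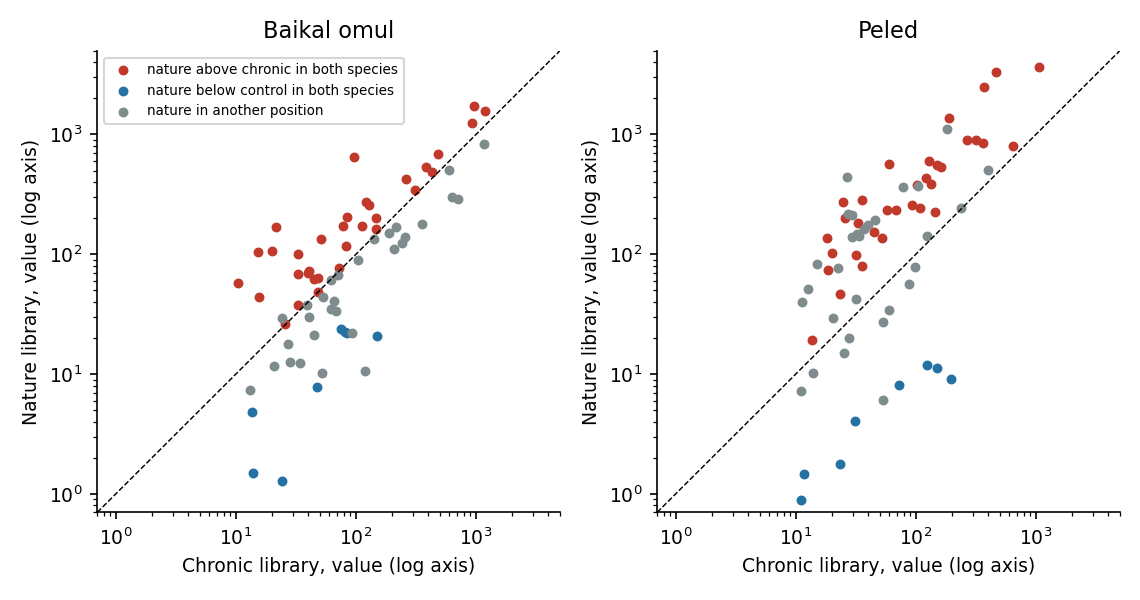
Value in the nature library (y axis, log) against the chronic library (x axis, log) of omul (left) and peled (right) for the 71 genes, with a dashed line of equality. On the deposited scale 54 genes lie above the line in peled and 34 in omul, and the 8 genes with nature below the control in both species are drawn in blue.

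In the 33 genes the median levels were 163, 44.6, 45.7 and 77.5 in omul, and 272, 21.5, 21.9 and 92.6 in peled. By the mean of the log2 ratios of both species, TRINITY_DN47028_c0_g1 had the largest ratio of nature to control. It had omul values of 106, 9.89, 11.02 and 19.9 and peled values of 285, 3.29, 7.04 and 35.3. Nature exceeded each heated library of this gene in both species. TRINITY_DN299239_c1_g1 had omul values of 104, 3.46, 27.2 and 15.3 and peled values of 234, 13.8, 7.54 and 57.9. Here the acute library stood above the chronic in omul and below the control in peled.

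The 8 genes low in nature had median levels of 14.4, 28.2, 41.2 and 61.2 in omul. In peled the medians were 6.13, 30.8, 29.9 and 51.9. Their chronic ratios were similar in the species, with median log2 ratios of 0.89 in omul and 0.75 in peled. TRINITY_DN2983_c0_g1 had omul values of 21.0, 69.1, 84.9 and 151 and peled values of 9.10, 101, 112 and 197. TRINITY_DN15030_c2_g2 had omul values of 1.27, 12.7, 7.48 and 24.1 and peled values of 4.07, 17.8, 19.2 and 31.3. In both genes each aquaculture-reared library stood above the nature library of its species.

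By the median, the 71 genes stood higher in peled than in omul in nature and lower in peled in each aquaculture state. In nature 28 of the 67 genes at a value of 10 were at least 2-fold higher in peled, where 12.6% of the listed genes were, and 2 were lower, where 12.3% were. The median log2 ratio of peled to omul was 0.91 in nature, against -0.14 for all listed genes. In the control it was -1.18 (all listed genes -0.45), with 6 genes at least 2-fold higher (40.9%) and 40 lower (45.5%). After acute warming it was -1.80 (all listed genes -0.45), with 4 higher (45.2%) and 50 lower (44.2%). After chronic warming it was -0.66 (all listed genes -0.26), with 7 higher (39.9%) and 30 lower (42.0%). The members' shares, higher and lower, were 9.38% and 62.5% in the control, 5.97% and 74.6% after acute and 9.86% and 42.3% after chronic warming. Among the 550 genes they were 23.2% and 42.6%, 29.7% and 45.3%, and 22.8% and 31.5%. The control and chronic libraries were used in the choice, and its minimum value in both species limits how far members can differ. For 44 genes peled stood above omul in nature and below it in the control (62.0%, against 40.4% of the 550 genes), and for 5 the reverse held. For 32 genes peled stood above omul in nature and below it in each of the 3 aquaculture states. No share over the listed genes or the 550 is given for this pattern, so the count cannot be set against them.

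**Figure D5:**
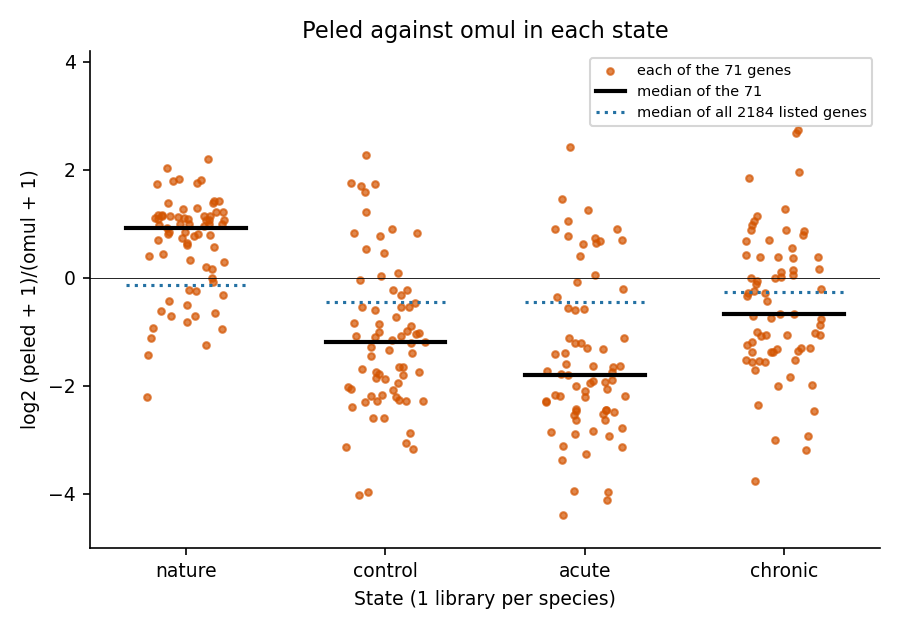
Log2 ratio of peled to omul for each of the 71 genes in the 4 states, 1 library per species and state, with the median of the 71 genes (black) and of all 2184 listed genes (dotted). The median of the 71 lies at 0.91 in nature and between -1.80 and -0.66 in the aquaculture states.

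The mean species difference was tested over the 4 states with limma, a linear model fitted to all 2184 genes with species and state as terms (n = 4 libraries per species, 1 per state). This contrast is not the one the choice used, although the minimum value in both species limits how far members can differ. At a Benjamini-Hochberg adjusted p below 0.05, 0 of the 71 genes were called higher in peled (17.9% of the listed genes were, and 2 members had an unadjusted p below 0.05) and 4 were called lower (17.9% of the listed genes). Among the 550 genes the shares were 5.45% and 5.09%, so the members' 5.63% on the lower side is near that background. TRINITY_DN26289_c0_g1 had omul values of 303, 342, 308 and 629 and peled values of 192, 21.0, 34.6 and 45.4. Its difference was -2.87 (log2, SE 0.93, limma adjusted p = 0.0118), and peled was lower in 4 of 4 states. TRINITY_DN8188_c0_g2 had omul values of 7.76, 14.9, 39.4 and 47.1 and peled values of 0.88, 2.24, 4.63 and 10.98. Its difference was -2.34 (log2, SE 0.77, limma adjusted p = 0.0145), again lower in 4 of 4 states. The other two called genes were TRINITY_DN23857_c0_g1 and TRINITY_DN7460_c0_g2, named after their values were seen, and in nature both stood higher in peled.

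In the fit with the nature libraries, these 4 calls were lost when any one aquaculture-reared library was left out. The other library of that state then adds nothing to the difference, so leaving out either library of a state gave the same difference. Residual degrees of freedom fell from 3 to 2. The prior degrees of freedom, the weight limma gives to the spread of genes at a similar level, stayed infinite. Shares over all listed genes are not given for these fits. With any one of the 6 left out, limma called 0 members, and at an unadjusted p below 0.05 0 were higher and 1 or 2 lower. Within the 6 aquaculture-reared libraries alone, where the nature libraries no longer enter the spread, limma called 7 members higher in peled (38.7% of the listed genes) and 39 lower (45.7%). Among the 550 genes the shares were 24.7% and 41.3%, against 9.86% and 54.9% of the members. The control and chronic libraries in this fit were used in the choice, so these shares of the members are not independent of it. The 4 genes called over 8 libraries were among the 39 called lower over these 6. The p-values rest on pooled libraries of different states and not on replicate pools. With infinite prior degrees of freedom, the 8-library fit took each gene's error wholly from the trend of genes at a similar level. Its SEs and p-values do not measure how steady a gene's own difference was over the states. In the 6-library fit a gene's own spread had the smaller weight (residual degrees of freedom 2, prior 5.54).

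Whether the species difference itself differed between nature and aquaculture was tested with limma in a fit added after the data had been seen. The fit had species, state and the species difference in nature as terms over all 8 libraries. Its error joins the spread of the species difference over the 3 aquaculture states with a spread shared by genes of similar level. The shared part had the larger weight (prior degrees of freedom 5.74, residual 2). The SE and p-value of a gene therefore do not measure its own spread alone. Nature has 1 library per species and is assumed to vary like the rest. The control and chronic libraries of the choice enter both the aquaculture side and this error. The shares of the members below are therefore not independent of the choice. Relative to aquaculture, the difference of peled from omul was higher in nature for 26 of the 71 genes (33.9% of the listed genes were called so) and lower for 2 (34.9%). The members' shares were 36.6% on the higher and 2.82% on the lower side. Among the 550 genes they were 25.6% and 24.0%, so the higher side is near the list and above the 550 genes, and the lower side is below both. The median over the members was 1.94 (log2), against 0.31 over all listed genes and 0.18 over the 550.

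TRINITY_DN7460_c0_g2 had the largest such change. It had omul values of 133, 76.6, 105 and 143 and peled values of 442, 3.76, 4.03 and 26.9. The species difference was 5.32 (log2, SE 0.94, limma adjusted p = 0.0035) higher in nature. TRINITY_DN18199_c0_g3 had omul values of 77.0, 44.6, 64.1 and 72.8 and peled values of 272, 4.08, 3.20 and 24.8, a change of 4.68 (log2, SE 0.98, limma adjusted p = 0.0056). In both genes peled was the higher species in nature and the lower in all 3 aquaculture states. TRINITY_DN7460_c0_g1, named here because it shares the component of TRINITY_DN7460_c0_g2, had a smaller change of 1.17 (log2, SE 0.91) and was not called. Its omul values were 203, 50.8, 68.0 and 83.8, and its peled values 382.5, 40.2, 30.8 and 134. For this entry peled stood above omul after chronic warming as well as in nature.

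On the lower side were TRINITY_DN72851_c0_g1 and TRINITY_DN9585_c0_g1. TRINITY_DN72851_c0_g1 had omul values of 649, 50.4, 45.7 and 97.2 and peled values of 797, 247, 250.1 and 649.8, a change of -2.18 (log2, SE 0.84, limma adjusted p = 0.0474). For TRINITY_DN9585_c0_g1 the change was -1.82 (log2, SE 0.55, limma adjusted p = 0.0206). The call of TRINITY_DN72851_c0_g1 was lost after scaling to a common median and without any one control or acute library, and both calls were lost without state as a term. Counts of calls in this fit also changed when single libraries were left out, and so did the prior degrees of freedom. These were 5.74 with all libraries, 6.24 and 6.42 without a control library, and infinite without either chronic library. Shares over all listed genes are not given for these fits, so the counts below cannot be set against the list. There were 17 genes called higher without either control library and 46 without either chronic library.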

How the data were processed

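Messenger RNA of pooled whole larvae was sequenced on Illumina NovaSeq, as the labels' protocols state. The deposited value per gene and library is a normalized expression signal with 3 decimals. The submitters' processing notes name Trimmomatic 0.36 and edgeR 4.0.3 but no role for either. Assembler, quantifier, scaling and selection of genes are not stated by any source used here. Values were used as deposited. Ratios of single libraries were taken on value + 1, and genes 2-fold or more apart that reached a value of 10 in either library were counted without a test, beside the same count over all listed genes. Species differences were fitted on log2(value + 1) with limma 3.58.1 under R 4.3.3, with the trend option, over all 2184 genes, adjusted by Benjamini-Hochberg, with 3 residual degrees of freedom in the 8-library fit, and 2 in the 6-library fit and in the fit of the species difference between origins. The prior degrees of freedom were infinite in the 8-library fit, 5.54 in the 6-library fit and 5.74 in the last. The 8-library fit and the fit between origins were tested on simulated data. The simulated noise was the median spread of the 6 aquaculture-reared libraries, so it leaves out the spread that the nature libraries add. The members and lists were chosen with earlier results of these data known. Named genes are at most 2 per comparison and direction, picked by the largest ratio or difference with the same sign in both species (for the species contrast, in all 4 states; for the size of the ratio, by its difference between species; for the edge, by nearness). Alternatives changed the pseudocount, the minimum value, the ratio, the scaling and the libraries used.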

Additional observations from a re-analysis of the deposited data

Results flagged for a closer look

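The median acute ratio of the 71 genes had opposite signs in the species, with the peled median close to that of the list and above that of the 550 genes. The median log2 ratio of acute to control was 0.446 in omul and -0.0935 in peled. For all listed genes it was -0.046 and -0.064, and for the 550 genes 0.0041 and -0.18. With libraries scaled to a common median, the members' medians were 0.51 and -0.17, against 0.066 and -0.26 for the 550 genes. With 1 library per group this difference was not tested.

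In limma's test of whether the species difference differed between nature and aquaculture, 26 of the 71 genes were called higher in nature (36.6%, near the 33.9% of all listed genes) and 2 lower (2.82% against 34.9%). The nature side of this test rests on 1 library per species, and its aquaculture side includes the control and chronic libraries used in the choice. Nature and aquaculture larvae may also differ in age and temperature, and these cannot be told apart from origin.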

How the results depend on the processing

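Other settings gave 68 to 94 genes in place of 71 with a pseudocount of 0.1 or 5, a minimum value of 5, libraries scaled to a common median or no genes left out for acute warming, and 55 with a minimum value of 20. A ratio of at least 2 left 24 genes, all among the 71, since it is stricter by construction. For peled against omul over 8 libraries (0 higher, 4 lower), a pseudocount of 0.1 gave 2 lower, and the 6 aquaculture-reared libraries gave 7 higher and 39 lower. With 1 library left out, the counts ran from 0 to 7 higher and from 0 to 38 lower, the high values arising without a nature library. The lone library left in that state then adds nothing to the difference. For the species difference between origins (26 higher, 2 lower), leaving out state as a term gave 16 and 0, with 20 and 0 at an unadjusted p below 0.05 in limma, scaling to a common median gave 1 lower, and leaving out 1 aquaculture-reared library gave 17 to 46 higher and 1 to 3 lower. Of the counts at least 2-fold apart, a pseudocount of 5 gave 3 higher and 0 lower after acute warming in omul and 1 lower in peled than in omul in nature. Acute peled had 1 gene lower after scaling and 2 with no minimum value. Nature omul against its control had 5 lower with a pseudocount of 0.1 and 7 after scaling, and against acute omul 17 higher after scaling. With no minimum value, 4 genes were lower in peled than in omul in nature. Beyond the construction of the stricter ratio, the cause of these changes was not tested. The remaining 93 alternative counts lay within 1.5 times the reported ones. No paired analysis of replicates was possible because each group has 1 library, and the species fit already has state as a term. Sequencing depth is unknown, so the counting error of low values could not be given.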
